A study of Mus musculus with 12 samples.

Results

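The miR-30 family is a set of microRNAs, short RNAs that pair with messenger RNAs and lower their translation and stability. Its members were taken by name: the main-arm probes for mmu-miR-30a, mmu-miR-30b, mmu-miR-30c, mmu-miR-30d and mmu-miR-30e, written below without the species prefix, which are 5 of the 566 mouse miRNA probes of a NanoString nCounter panel. The panel held 0 further probes with a miR-30 name. nCounter counts colour-coded probes bound to RNA molecules without amplification, and each library here is 1 lane of the instrument. The cells were mHypoE-46, an immortalized neuronal line from male mouse embryonic hypothalamus, in which Neuropeptide Y and Agouti-related Peptide are made. They received either vehicle (PBS) or 100 nM insulin and were harvested after 4 h or 24 h, with 3 replicates in each of the 4 groups and 12 libraries in all. The labels tie the later time to insulin resistance in this model. All replicates are cultures of 1 cell line, described as independent repeats of the experiment.

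A microRNA selects its targets mainly through its seed, bases 2 to 8 of the mature strand, so microRNAs that share a seed are treated as a family with overlapping targets. The miR-30 family is made in many tissues, brain included. In human cells it is known for promoting fat cell formation and for restraining mesenchymal genes such as SNAI1 and VIM in islet-derived cells. No readout of a target mRNA was analysed here.

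The mature sequences are shown because the shared seed defines the family and because the remaining bases show how little separates some members. They come from RefSeq on the mouse build GRCm38.p6, which matched 3 of the 5 members, miR-30a, miR-30c and miR-30e. The entries with the same seed in that table also included miR-384-5p. Capitals mark the seed.
mmu-miR-30a: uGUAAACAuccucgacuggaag
mmu-miR-30c: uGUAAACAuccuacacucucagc
mmu-miR-30e: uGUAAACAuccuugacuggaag
mmu-miR-384-5p: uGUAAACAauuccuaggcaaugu

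Counted from the 5′ end, miR-30a and miR-30e differed at 1 of 22 positions compared, C13U, with the base of miR-30a first. miR-30a and miR-30c differed at 5 of 22 positions, the first of them position 13. miR-384-5p departed from miR-30a directly after the seed, with 10 of 22 positions different. The mature miR-30a lies on the plus strand at chr1:23272274-23272295, outside other annotated genes. miR-30c has 2 loci with the same mature sequence, chr1:23291714-23291736 on the plus strand and chr4:120769584-120769606 on the minus strand. The second of these and the miR-30e strand, chr4:120772660-120772681 on the minus strand, both lie within Nfyc, the gene of a subunit of the transcription factor NF-Y. The miR-384-5p strand is at chrX:105344332-105344354 on the minus strand. How far the panel's probes tell near-identical members apart was not tested, so a value of a single member may hold reads of its relatives.

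Libraries gave 142158 to 379809 mouse miRNA counts. A count was taken as above background where it exceeded the mean plus 2 SD of its library's 8 negative controls, and 195 of the 566 probes did so in at least 3 libraries and were tested. The 4 h libraries ran in lanes 1 to 6 and the 24 h libraries in lanes 7 to 12, so harvest time and lane position cannot be told apart. Among the insulin 24 h libraries, replicate 1 was among the smallest (142491 counts) and had the lowest binding density, 0.25, while replicate 2 was the largest and densest (379809 counts, 0.49). Of 9 neuronal marker miRNAs on the panel 6 were tested; miR-9 was above background in every library, whereas miR-124, miR-137 and miR-138 were above it in none. The liver marker miR-122 and both oligodendrocyte markers were above background in none of the libraries. Of the other marker lists, 1 of 3 myeloid, 1 of 1 endothelial, 2 of 3 muscle and 2 of 5 epithelial miRNAs were tested, with the epithelial miR-200b above background in every library. The myeloid markers together held 0.104% to 0.562% of the counts at 4 h and 0.0387% to 0.0997% at 24 h, with miR-142-3p and miR-142-5p above background in none. In the comparison of 24 h with 4 h averaged over both treatments, the myeloid miR-223 fell by 2.78 and the endothelial miR-126-3p by 0.44 on the log2 scale (adjusted p 0.00726 and 0.0409, edgeR), and no neuronal, muscle or epithelial marker passed. Neither miR-223 nor miR-126-3p was above background in every library, and each could enter the test through the libraries where it was highest. Their fold changes may therefore compare signal at 4 h with background at 24 h. The part of these markers in the time differences of the miR-30 members was not tested.

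All 5 members were above background in 12 of 12 libraries, but by unequal margins. mmu-miR-30b gave 469 to 1449 counts, which was 17.0 to 36.4 times the negative control mean. mmu-miR-30a gave 245 to 525 counts and mmu-miR-30d 134 to 664. mmu-miR-30c stayed at 70 to 167 counts, only 2.02 to 3.10 times the negative control mean, and mmu-miR-30e at 57 to 249 counts, or 2.28 to 4.02 times. The seed relative miR-384-5p, with 16 to 38 counts, and miR-384-3p, with 12 to 73, were above background in no library. Probes differ in how well they capture their target, so counts of different members do not rank their amounts.

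The 5 probes together made up 0.957% to 1.12% of the mouse miRNA counts in the 4 h libraries and 0.692% to 0.874% in the 24 h libraries. The widest 95% Wilson interval at 4 h, in vehicle replicate 1, ran from 0.960% to 1.06%, and these intervals cover counting error only. The 2 times did not overlap on this share, which also falls when other miRNAs take more of the counts. How many other miRNAs or families separated on such a share was not counted, so the separation is not read as particular to miR-30. The miR-29 probes, for comparison, held 5.80% to 8.02% of the counts at 4 h and 10.4% to 11.4% at 24 h. Levels below are CPM, counts relative to the library total after TMM scaling, which sets libraries on a common scale through the bulk of the miRNAs. On that scale the summed family level overlapped between the times. It ran from 9093 to 11245 CPM at 4 h and from 8710 to 10832 CPM at 24 h. miR-30b supplied 54.9% to 59.9% of the family's counts at 4 h and 47.4% to 55.0% at 24 h. miR-30d supplied 12.3% to 14.1% at 4 h and 13.6% to 21.7% at 24 h, with the 2 highest shares in insulin replicates 2 and 3.

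**Figure D1:**
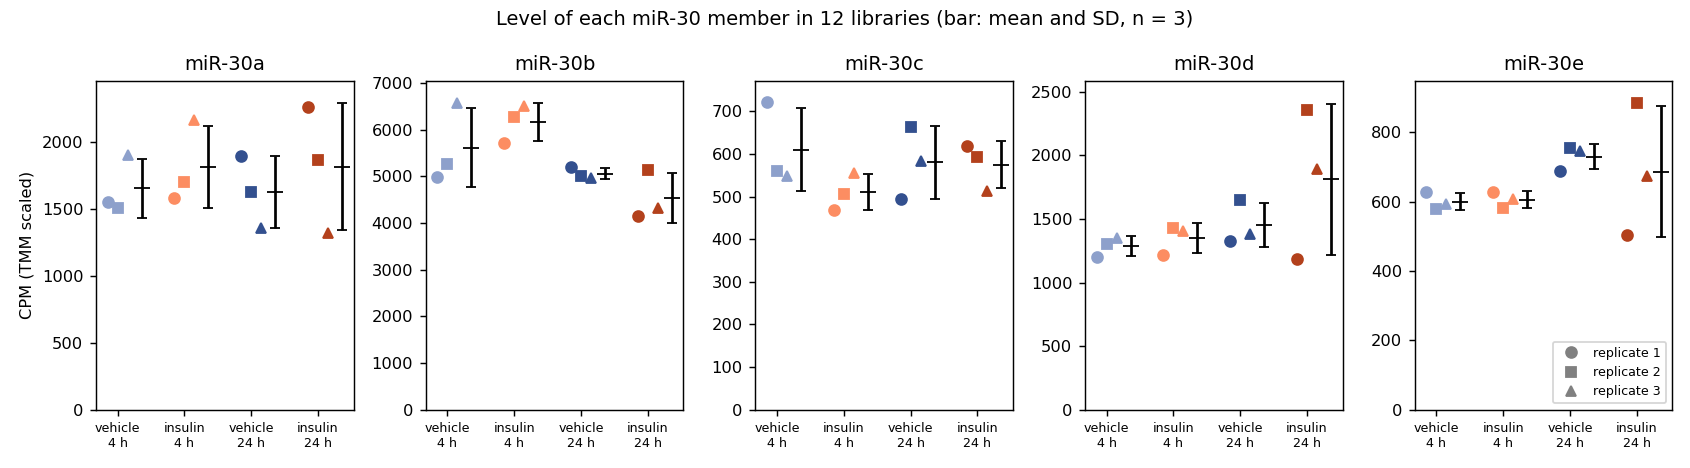
Level of each miR-30 member in CPM after TMM scaling, in the 4 groups on the horizontal axis. Points are single libraries, with the marker giving the replicate number, and the black bar is the mean and SD of 3 libraries. The mean of miR-30b is lowest in insulin at 24 h, and the insulin 24 h libraries are widely spread for miR-30d, from 1184 to 2355 CPM, and miR-30e, from 503 to 883 CPM.

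miR-30b gave 4993, 5272 and 6575 CPM in vehicle at 4 h, with replicates 1 to 3 in that order here and below, and 5716, 6284 and 6512 CPM in insulin at 4 h. At 24 h it gave 5198, 5000 and 4974 CPM in vehicle and 4143, 5139 and 4322 CPM in insulin. The 3 insulin libraries at 24 h all lay below the 3 insulin libraries at 4 h, while the vehicle libraries of the 2 times overlapped. Of all tested miRNAs, 8.72% lay lower at 24 h in insulin without overlap, and miR-30b was the only member to do so. In order of their means the groups were insulin 4 h (6170 ± 410, SD, n = 3), vehicle 4 h (5613 ± 845), vehicle 24 h (5057 ± 123) and insulin 24 h (4535 ± 531). Each neighbouring pair in that order overlapped.

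miR-30d is known in mouse beta cells for raising insulin gene expression when overexpressed. It gave 1202, 1301 and 1353 CPM in vehicle at 4 h and 1218, 1431 and 1409 CPM in insulin at 4 h. At 24 h it gave 1327, 1646 and 1383 CPM in vehicle and 1184, 2355 and 1891 CPM in insulin. The insulin 24 h group thus held both the lowest and the highest of the 12 values, with a mean of 1810 ± 590 CPM. The other group means were 1452 ± 170 in vehicle at 24 h, 1352 ± 117 in insulin at 4 h and 1285 ± 76.5 in vehicle at 4 h, and all neighbours in this order overlapped.

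miR-30e gave 626, 578 and 594 CPM in vehicle at 4 h and 629, 580 and 609 CPM in insulin at 4 h. At 24 h it gave 688, 756 and 745 CPM in vehicle and 503, 883 and 673 CPM in insulin. All 3 vehicle libraries at 24 h lay above all 3 vehicle libraries at 4 h, as for no other member and for 11.8% of all tested miRNAs. The insulin 24 h group again held both extremes, in the same libraries as for miR-30d, replicate 1 low and replicate 2 high. The group means were 729 ± 36.5 in vehicle 24 h, 687 ± 190 in insulin 24 h, 606 ± 24.5 in insulin 4 h and 600 ± 24.6 CPM in vehicle 4 h, with overlap between neighbours.

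miR-30a, known in human cells for targeting the autophagy gene BECN1, ranged from 1319 to 2261 CPM. Its group means lay between 1625 ± 268 in vehicle at 24 h and 1814 ± 473 in insulin at 24 h. Both its lowest and its highest library were insulin at 24 h, here with replicate 1 the highest and replicate 3 the lowest. miR-30c, known in liver for targeting the mRNA of the lipid transfer protein MTTP, ranged from 469 to 721 CPM. Its means ran from 510 ± 43.0 in insulin at 4 h to 610 ± 96.5 in vehicle at 4 h. The groups of neither member separated in any comparison.

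Whether insulin moved the family was asked at each time. No member passed the test. At 4 h the log2 fold changes of insulin over vehicle ran from -0.26 for miR-30c (SE 0.17) to 0.14 for miR-30b (SE 0.17), and at 24 h from -0.16 for miR-30b (SE 0.17) to 0.33 for miR-30d (SE 0.21). Single libraries moved the outer values: the miR-30d estimate at 24 h was 0.55 without insulin 24 h replicate 1 and 0.091 without insulin 24 h replicate 2, and the miR-30c estimate at 4 h was -0.097 without vehicle 4 h replicate 1. The smallest adjusted p of a member was 0.971 at 4 h and 0.962 at 24 h (edgeR quasi-likelihood test, Benjamini-Hochberg over the 195 tested miRNAs). Of all tested miRNAs, 0% passed at either time, with 3 and 4 of 195 at an unadjusted p under 0.05, none of them a member. The insulin and vehicle libraries overlapped for 5 of 5 members at both times, where 5.13% of the tested miRNAs did not overlap at 4 h and 6.15% did not at 24 h. With the vehicle and insulin libraries of both times, the averaged insulin effect ran from -0.14 for miR-30c (95% interval -0.39 to 0.11) to 0.20 for miR-30d (-0.12 to 0.52). For miR-30b the averaged effect was -0.01, with an interval from -0.27 to 0.25. The response to insulin was not shown to differ between the times for any member (adjusted p 0.991 in the interaction test, edgeR). The largest such difference was that of miR-30b, -0.29 (SE 0.24), and the median over the members was 0.02 beside 0.05 over all tested miRNAs. The sign of the miR-30d estimates depended on the scaling. With the housekeeping mRNAs as reference they were -0.13 at 24 h and -0.041 averaged. The 4 h estimate of 0.07 (SE 0.21) was -0.030 with scaling to the most abundant probes, -0.035 with the positive controls and -0.030 with limma on the authors' deposited signals.

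**Figure D2:**
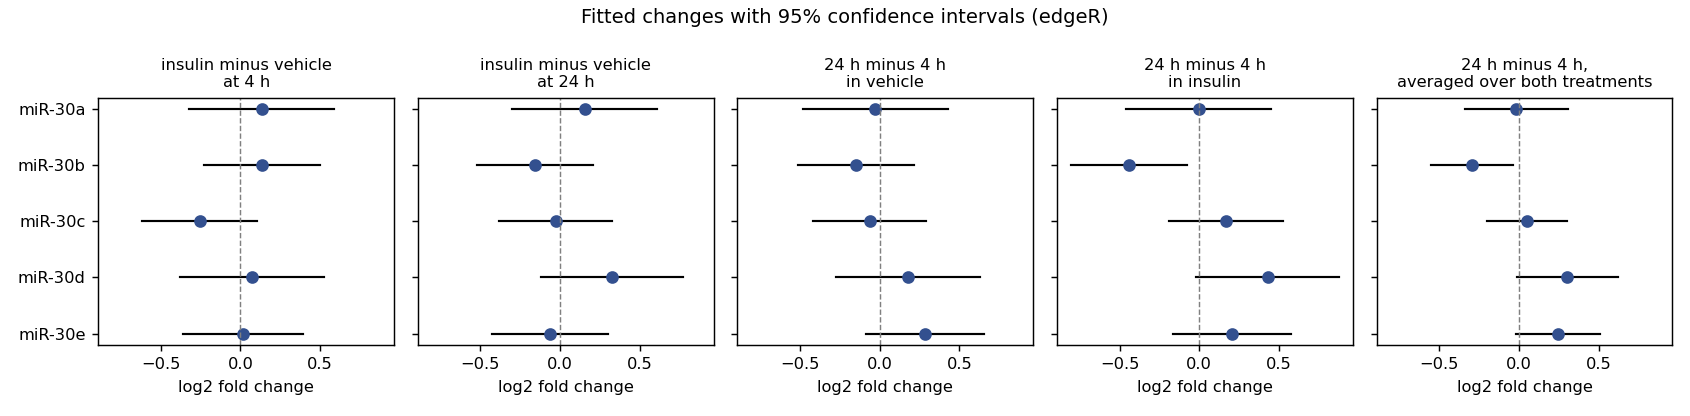
Log2 fold change (horizontal axis) of each member with its 95% confidence interval in 5 comparisons, from the edgeR fit over all 12 libraries. Only the intervals of miR-30b for 24 h against 4 h, in insulin and averaged over both treatments, leave out 0, and neither passes adjustment over the tested miRNAs.

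The comparison of 24 h with 4 h asks how the family stood later in culture, with and without insulin. In the fit over all tested miRNAs, 0 of 5 members passed in vehicle, in insulin or averaged over both, where 0%, 3.59% and 15.4% of the tested miRNAs did. In vehicle 31 of 195 had an unadjusted p under 0.05, none of them a member. In insulin miR-30b had a log2 fold change of -0.44 (SE 0.17, 95% interval -0.81 to -0.08) with an adjusted p of 0.167 (edgeR). Averaged over both treatments it was -0.30 (SE 0.12, -0.55 to -0.04) with an adjusted p of 0.124, and it was -0.15 (SE 0.17) in vehicle. The insulin value passed under 5 alternatives: DESeq2 (-0.51, adjusted p 0.0100), limma on the authors' deposited signals (-0.55, adjusted p 0.0143), and edgeR with a mean count of at least 100 (-0.58, adjusted p 0.0142), most-abundant scaling (-0.54, adjusted p 0.0150) or housekeeping scaling (-0.99, adjusted p 0.0473). These 5 fits passed 21, 16, 13, 15 and 16 miRNAs in that order, of 195 tested or, with the mean count of at least 100, of 119. The insulin value of miR-30b passed in none of the 12 fits without 1 library and was -0.38 without insulin 24 h replicate 1, the small library. The miR-30b estimates for 24 h against 4 h were below 0 under every alternative run, from -0.23 to -0.65 averaged. The averaged estimate passed with DESeq2 (log2 fold change -0.33, adjusted p 0.00915), with scaling to the most abundant probes in edgeR (-0.40, adjusted p 0.00476) and with limma on the authors' deposited signals (-0.41, adjusted p 0.00435). It also passed among probes with a mean count of at least 100 (edgeR, -0.40, adjusted p 0.00574) and without vehicle 4 h replicate 1 (-0.40, adjusted p 0.0258). In that order these 5 fits passed 41, 32, 31, 36 and 19 miRNAs, of 195 tested or, with the mean count of at least 100, of 119. The adjusted p for the average ranged up to 0.457 over the other settings.

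miR-30d and miR-30e leaned the other way, without passing. Averaged over both treatments, miR-30d had a log2 fold change of 0.30 (SE 0.15, 95% interval -0.01 to 0.62; edgeR adjusted p 0.197) and miR-30e one of 0.25 (SE 0.12, -0.02 to 0.51; edgeR adjusted p 0.200). Without insulin 24 h replicate 1, the library that held the lowest value of both, the averages were 0.41 for miR-30d (adjusted p 0.0225) and 0.33 for miR-30e (adjusted p 0.0305, edgeR). In that reduced fit the insulin-only difference of miR-30d was 0.65 (adjusted p 0.0314, edgeR). The same fit passed more miRNAs throughout, 52 of 195 averaged and 22 of 195 in insulin, against 30 and 7 with all libraries. Without insulin 24 h replicate 2, by contrast, the insulin-only value of miR-30e was -0.02 instead of 0.21. The estimates of miR-30a (-0.02, SE 0.15) and miR-30c (0.05, SE 0.12) were close to 0. The members' median was 0.05 beside 0.04 over all tested miRNAs, where 19 of the 30 miRNAs that passed rose and 11 fell.

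**Figure D3:**
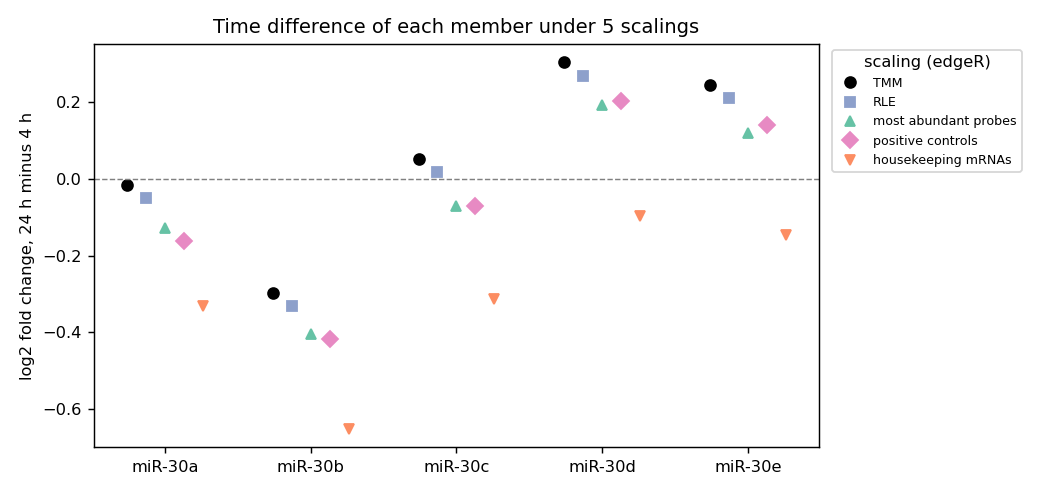
Log2 fold change of 24 h over 4 h, averaged over both treatments (vertical axis), for each member under 5 ways of scaling libraries in edgeR. miR-30b lies below 0 under all 5; miR-30d and miR-30e lie above 0 except with the housekeeping mRNAs as reference, where they are at -0.10 and -0.15.

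Scaling to the housekeeping mRNAs moved all miRNAs together, with a median over the tested miRNAs of -0.33 for the averaged time difference against 0.04 under TMM. Relative to those medians, miR-30b remained the lowest member and miR-30d and miR-30e the highest. This order does not need any scaling between libraries when it is read as a ratio of 2 members within a lane, which was tested next.

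The 10 ratios between members were compared between times and between treatments, in 20 exact permutation tests, each over all 924 assignments of 6 libraries to a side. The count of miR-30d per count of miR-30b was 0.241, 0.247 and 0.206 in vehicle at 4 h and 0.213, 0.228 and 0.216 in insulin at 4 h. At 24 h it was 0.255, 0.329 and 0.278 in vehicle and 0.286, 0.458 and 0.438 in insulin. Every 24 h library thus lay above every 4 h library. The difference was 0.56 on the log2 scale, a 1.48-fold higher ratio (exact two-sided p = 0.00216, the smallest this test can give). Its adjusted p was 0.0283 over all 18915 pairs of tested miRNAs and 0.0433 over the 20 member tests. With that second adjustment, fixed in the design, the call was lost when libraries were permuted within treatment (adjusted p 0.05 by exact permutation). It was also lost with same-numbered libraries as a block (adjusted p 0.208 by exact sign flips) and in 4 of 12 tests without 1 library. The permutation within treatment gave an exact p of 0.005 and the sign flips one of 0.0312, each the smallest that test can give. Whether such a p passes adjustment depends on how many of the 20 tests also reach it. Within treatments the difference was 0.31 in vehicle and 0.82 in insulin, and the times did not overlap in either. In vehicle 3 of 10 member ratios separated in this way, beside 25.8% of all pairs, and in insulin 3 of 10, beside 20.5%.

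The ratio of miR-30e to miR-30b ran from 0.0904 to 0.125 at 4 h and from 0.122 to 0.172 at 24 h. The lowest 24 h library, insulin replicate 1, lay inside the 4 h range and the other 5 lay above it. The ratio was 1.42-fold higher at 24 h, 0.51 on the log2 scale (exact two-sided p = 0.00433, adjusted p 0.0390 over all pairs and 0.0433 over the member tests). Over the member tests this call was lost after background subtraction (adjusted p 0.0649, exact permutation), in the same pair of restricted tests (0.05 and 0.208, each again from the smallest p the test can give) and in 9 of 12 tests without 1 library. The difference was 0.42 in vehicle and 0.59 in insulin, and within each treatment the times did not overlap.

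These 2 of the 10 ratios passed for time, beside 14% of all pairs of tested miRNAs, and 1 of 10 had no overlap between the times, beside 7.66% of all pairs. Pairs share miRNAs and are not independent. Before adjustment 2 of 10 had a p under 0.05, beside 31.5% of all pairs. These counts are near or below those of the panel and are not read as particular to this family. With the adjustment over all pairs, which was added after the data were seen, the call for miR-30d to miR-30b was lost in 5 of the 12 fits that left out a library. These were the fits without vehicle 4 h replicate 3 (adjusted p 0.0519), insulin 4 h replicate 1 (0.0566) or 2 (0.0505), vehicle 24 h replicate 2 (0.0501) and insulin 24 h replicate 2 (0.0530). In that order 9.63%, 9.15%, 5.75%, 0% and 0% of all pairs passed in them, against 14% with all libraries. The losses are therefore not particular to this ratio. Its log2 difference stayed between 0.47 and 0.64 over the 12 exact tests. The call for miR-30e to miR-30b was lost in those 5 and in 3 more, without vehicle 4 h replicate 2 (0.0562), vehicle 24 h replicate 3 (0.0656) or insulin 24 h replicate 3 (0.0657). Of all pairs, 9.29%, 4.58% and 4.36% passed in these 3 fits, in that order. The log2 difference of miR-30e to miR-30b was 0.46 to 0.56 over the 12 exact tests.

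**Figure D4:**
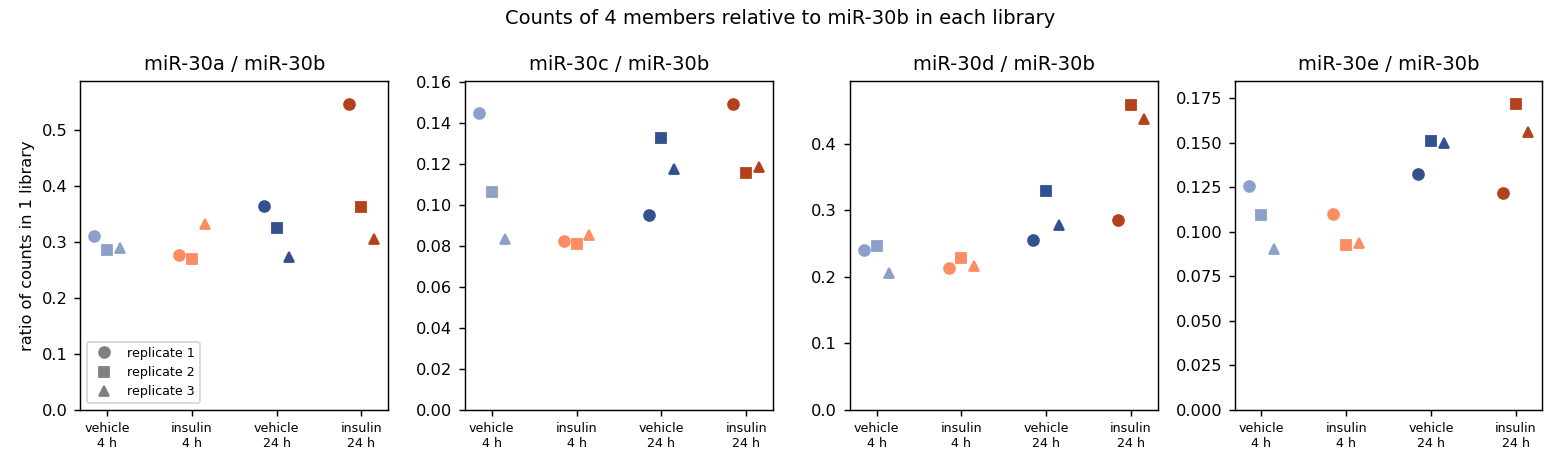
Counts of miR-30a, miR-30c, miR-30d and miR-30e per count of miR-30b in each library (vertical axis), in the 4 groups. The miR-30d ratio is 0.206 to 0.247 at 4 h and 0.255 to 0.458 at 24 h, and the miR-30a ratio is highest in insulin 24 h replicate 1.

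The other 8 ratios did not pass for time. The nearest were miR-30c to miR-30b, 0.34 higher at 24 h on the log2 scale (exact p = 0.0649, adjusted over all pairs 0.187), and miR-30b to miR-30a, with a log2 difference of -0.27 (exact p = 0.0714, adjusted over all pairs 0.199). miR-30e to miR-30d was nearly level between the times, at -0.06 (exact p = 0.632). For insulin against vehicle none of the 10 ratios passed, as for 0% of all pairs, and 1 of 10 had an unadjusted p under 0.05, beside 2.68% of all pairs. That was miR-30e to miR-30d, with a log2 difference of -0.22 (exact p = 0.0325, adjusted over all pairs 1). That ratio was 0.439 to 0.539 in vehicle and 0.356 to 0.516 in insulin, with overlap overall. At 24 h alone the 3 insulin libraries, at 0.425, 0.375 and 0.356, lay below the 3 vehicle libraries, at 0.518, 0.459 and 0.539, and at 4 h the treatments overlapped. This was the only member ratio of 10 to separate at 24 h, beside 7.14% of all pairs. At 4 h 2 of 10 separated, beside 6.02% of all pairs: miR-30d to miR-30c and miR-30e to miR-30c were higher in insulin, by 0.32 and 0.26 on the log2 scale.

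Across the 12 libraries the members' levels ran together most for miR-30d and miR-30e. Their log2 CPM had a Pearson r of 0.75, and 0.86 after group means were removed, with the points sharing depth and background. The r of that pair was 0.75 in the 24 h libraries and -0.68 in the 4 h libraries, where both members varied little. Several miRNAs outside the family ran closer to each. By r over the 12 libraries miR-30e stood at place 14 for miR-30d, where the highest r was 0.89. miR-30d stood at place 5 for miR-30e, where the highest was 0.88. The other 9 pairs had r from -0.34 to 0.25 over the 12 libraries, with higher values in parts of them. Among the 6 libraries at 4 h, r was 0.84 for miR-30a and miR-30b, 0.80 for miR-30b and miR-30d and 0.67 for miR-30a and miR-30d. At 24 h these were -0.11, 0.28 and -0.31, while miR-30b and miR-30e had an r of 0.80 (-0.28 at 4 h). After group means were removed, miR-30b and miR-30d had an r of 0.60. The near-identical miR-30a and miR-30e had an r of -0.32. By the mean of the members' log2 CPM, the tested miRNAs most like the family over the 12 libraries were miR-15b (r = 0.84), miR-152 (0.83), miR-720 (0.79), miR-18a (0.74) and miR-34b-3p (0.72). The members' own r with that mean was only 0.26 to 0.72, so the mean does not stand for a profile they share.

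Other abundant families and a list of miRNAs reported in fat cell formation or islets were set beside miR-30 in the averaged time comparison. Of the 9 let-7 and miR-98 probes 2 rose, let-7d and let-7e, and 0 fell, with a median log2 fold change of 0.57, and of the 3 miR-29 probes 2 rose, miR-29b and miR-29c, with a median of 0.66. Of the 2 miR-26 probes miR-26a fell (-0.71). In the fat cell and islet list, 13 of 16 were tested, 0 rose and 1 fell, again miR-26a, with a median of -0.01. The miR-30 family had 0 of 5 passing. Over all tested miRNAs 15.4% passed, 30 of 195, of which 19 rose and 11 fell. With so few probes in each family, these counts are not read as differences between families. The miR-30 median was 0.05, beside 0.04 over all tested miRNAs. That median stood near the middle of the tested miRNAs, and so nearer to that of the fat cell and islet list than to let-7 or miR-29. This difference was not tested. The median is the value of miR-30c, and the members ran from -0.30 for miR-30b to 0.30 for miR-30d. No miRNA of these lists passed for insulin against vehicle at either time, and 0% of all tested miRNAs did.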

How the data were processed

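The authors deposited digital counts of 620 nCounter probes per lane, not normalized per the file headers, and scaled signals. Each deposited mouse miRNA signal was the count times 1 factor per lane, within 0.00805% for counts of 100 or more. The authors' deposited probe values were recorded as estimated counts, since instrument rows in the same columns are not whole. All probe values are whole and entered the edgeR fit as they are. No software is named in the sources.

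Mouse miRNAs were tested where 3 or more of the 12 libraries showed a count more than 2 SD above the average negative control. All 4 groups entered 1 edgeR 4.0.16 quasi-likelihood fit with TMM scaling (R 4.3.3), with Benjamini-Hochberg adjustment over 195 miRNAs and a threshold of 0.05. Background was not subtracted. Ratios of 2 members, log2 of counts plus 1, were compared by exact permutation (NumPy). limma 3.58.1, DESeq2 1.42.0, other scalings, filters, a replicate block and leaving out each library were alternatives. Code was tested on simulated data. Members and lists were chosen with earlier results of these data known; the named miRNAs were the members, miR-384 and the 5 most like the family mean. Of the lists, miRNAs were named where they passed the test or define a cell type.

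Replicate numbers come from the labels, which do not say what a number shares. Same-numbered libraries deviated together in all 3 pairs only between insulin and vehicle at 24 h (r 0.59, 0.50 and 0.31). Between insulin and vehicle at 4 h, r was 0.49, -0.30 and 0.74. The same-numbered insulin and vehicle libraries ran in neighbouring lanes at both times. These were lanes 1 and 2, 3 and 4, and 5 and 6 at 4 h. At 24 h they were lanes 7 and 8, 9 and 10, and 11 and 12. A shared experiment and lane position therefore cannot be told apart at either time. Over all group pairs 8 of 18 correlations exceeded 0.1. Replicate libraries differed by more than sampling noise.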

Additional observations from a re-analysis of the deposited data

How the results depend on the processing

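Values of 24 h against 4 h for miR-30b stayed below 0 under all alternatives run. Of 795 alternative values of the 35 member results, 65 had the other sign, 7 of them where the reported value exceeded its SE. A sign within 1 SE of 0 was not counted as a direction. With housekeeping scaling, miR-30d was -0.13 for insulin at 24 h, -0.041 for insulin averaged, -0.19 for time in insulin and -0.10 for time averaged, and miR-30e was -0.41 and -0.15 for those times; the median of all tested miRNAs moved down with it. Leaving out 1 library gave miR-30e in insulin a range from -0.023 to 0.37.

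The number of miRNAs passing for 24 h against 4 h in vehicle was 0, but 9 with most-abundant scaling, 1 with positive controls, 7 with a mean count of at least 100, 12 with limma on deposited signals, 10 with the replicate block and 15 with DESeq2. Leaving out 1 library gave 0 to 12, the latter without vehicle 4 h replicate 3. In insulin it was 7, but 2 with RLE, positive controls, limma after background subtraction or only the groups compared, 1 without a filter, 13 with the count minimum, 15 with most-abundant scaling, 16 with housekeeping or limma on deposited signals, 18 with the replicate block and 21 with DESeq2. Leaving out 1 library gave 0 to 22, with 22 without insulin 24 h replicate 1 and 0 without insulin 4 h replicates 1 or 2, vehicle 24 h replicates 2 or 3 or insulin 24 h replicate 2. Averaged it was 30, but 17 with positive controls or housekeeping and 9 without a filter, and 12 (without vehicle 24 h replicate 2 or 3) to 52 (without insulin 24 h replicate 1) when 1 library was left out. What caused these changes in number was not tested.

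With the adjustment over the 20 member tests, 2 ratios passed for time, 1 after background subtraction and 0 to 2 when 1 library was left out. With permutation within treatment 0 passed, where both ratios had the smallest possible p, 0.005. With the replicate block as sign flips 0 passed, where both had the smallest possible p, 0.0312. For insulin, 0 to 1 ratio passed when 1 library was left out, the 1 without insulin 4 h replicate 1 (miR-30e to miR-30d). Adjusted over all pairs, an alternative added after the data were seen, both ratios to miR-30b passed after background subtraction and within treatment. The replicate block changed no member's call, and only the 24 h groups with the block, also added later, gave 0 calls for insulin. The order of the groups by mean CPM was kept for 1 of 5 members, miR-30b, without TMM.

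Depth limits miR-30c and miR-30e most: counting error alone is a coefficient of variation of 9.51% and 8.73%, against 3.10% for miR-30b.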
